A study of Homo sapiens with 30 samples.

Results

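The results concern the FOXA genes FOXA1, FOXA2 and FOXA3 and the FOXD genes FOXD1, FOXD2, FOXD3 and FOXD4, a list of 7 forkhead genes among 20037 protein-coding genes. They were listed by family name with earlier results of these data known, and the related FOXD4L genes were left out of the list. All 7 were found in the RefSeq annotation, and each was described by the peaks that overlapped its body extended by 2 kb at both ends. The study used CUT&RUN, in which a nuclease tethered to an antibody cuts out the DNA around a bound protein, on 30 libraries from 5 genotypes of a RING1 and RNF2 allelic series made with CRISPR-Cas9. The libraries used here were all wild type: neural progenitor cells grown as a monolayer in N2/B27/FGF medium from the human embryonic stem cell line H9, which is long established. The antibodies were against RING1 (2 libraries) and against RNF2 (2 libraries), and nothing in the labels says whether the 2 libraries of an antibody came from separate cultures. A single line was used, and the peak lists carry no expression values against which the neural progenitor label could be checked. The other libraries, including the edited genotypes, were not analysed here.

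RING1 and RNF2 are alternative catalytic subunits of Polycomb repressive complex 1, which attaches ubiquitin to histone H2A and keeps developmental genes silent. Polycomb complexes gather at CpG islands, stretches of DNA that are rich in unmethylated CpG dinucleotides. FOXA proteins are pioneer transcription factors that open closed chromatin; they specify endoderm, and FOXA2 also marks the floor plate of the neural tube. FOXD proteins act in other lineages, FOXD3 in the neural crest and in pluripotent cells, FOXD1 in the kidney stroma and the ventral forebrain.

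Each antibody had 2 peak lists, named here RING1-A and RING1-B, RNF2-A and RNF2-B, where lists with the same letter carry the same number in the authors' naming. The labels tie neither letter to a replicate number. RING1-A held 12891 peaks, RING1-B 659, RNF2-A 16263 and RNF2-B 5901. No source used here gives the sequencing depth. A gene without a peak in the short RING1-B list was below detection there, which does not show that RING1 was absent. Fold enrichment is the authors' own ratio of signal over background per peak. It carries no error, so it was ranked within a list and not compared between lists, and no test was run.

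The DNA just before the gene start passed the customary CpG ratio for CpG islands at every member with a RefSeq promoter. It did so at 63.4% of all promoters. RefSeq (GRCh38.p14, the assembly behind hg38) gave a promoter and a strand for 6 of the 7 members, all but FOXA2. The 250 bp before the start of 4 members are printed because the edges of the peaks fall differently on each. They read 5′ to 3′ in the direction of transcription, with every CpG in capitals. The FOXD1 sequence (chr5:73448778-73449027, minus strand) lay wholly under a peak in all 4 lists. The FOXD3 sequence (chr1:63322317-63322566, plus strand) lay wholly under 3 of them, and a RING1-B peak ended inside it. The FOXD4 sequence (chr9:118418-118667, minus strand) holds the edges of the RING1-A and RNF2-A peaks. The FOXA3 sequence (chr19:45864076-45864325, plus strand) holds the edge of a narrow RNF2-A peak.
FOXD1: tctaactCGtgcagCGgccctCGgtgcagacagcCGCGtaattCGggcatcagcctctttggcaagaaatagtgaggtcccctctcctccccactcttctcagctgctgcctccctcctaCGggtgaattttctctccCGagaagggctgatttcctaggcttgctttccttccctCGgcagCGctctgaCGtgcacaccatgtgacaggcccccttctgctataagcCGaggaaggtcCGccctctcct
FOXD3: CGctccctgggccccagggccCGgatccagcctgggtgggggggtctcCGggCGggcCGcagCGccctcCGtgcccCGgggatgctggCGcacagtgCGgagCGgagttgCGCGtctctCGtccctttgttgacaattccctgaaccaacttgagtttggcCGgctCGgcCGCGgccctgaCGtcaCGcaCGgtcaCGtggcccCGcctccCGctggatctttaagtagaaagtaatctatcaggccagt
FOXD4: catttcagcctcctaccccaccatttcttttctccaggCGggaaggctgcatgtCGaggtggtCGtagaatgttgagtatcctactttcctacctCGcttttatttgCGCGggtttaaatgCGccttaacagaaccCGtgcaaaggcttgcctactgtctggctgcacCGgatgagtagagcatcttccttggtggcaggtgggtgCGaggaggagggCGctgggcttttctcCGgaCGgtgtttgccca
FOXA3: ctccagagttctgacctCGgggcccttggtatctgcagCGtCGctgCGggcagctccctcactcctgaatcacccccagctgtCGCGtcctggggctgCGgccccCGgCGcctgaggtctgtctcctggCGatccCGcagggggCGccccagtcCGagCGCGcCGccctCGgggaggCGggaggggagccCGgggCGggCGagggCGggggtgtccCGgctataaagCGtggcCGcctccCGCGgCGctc

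CpG dinucleotides numbered 13 in the FOXD1 stretch, 24 in FOXD3, 13 in FOXD4 and 28 in FOXA3, and 26 and 24 in those of FOXA1 and FOXD2. The median over promoters of protein-coding genes was 17. The ratio of CpG observed over expected from the base composition was highest at FOXA1, 0.977, above 86.0% of 15843 promoters of protein-coding genes. It was 0.841 at FOXD3, 0.792 at FOXA3, 0.694 at FOXD4, 0.654 at FOXD2 and 0.630 at FOXD1, where the median promoter had 0.737. All 6 members thus passed the customary ratio of 0.6 for CpG islands, as did 63.4% of all promoters. FOXA1 had the highest ratio and FOXD1 the lowest, and these were the members with the highest RNF2-A folds. FOXA3, with the lowest RNF2-A fold, had a ratio between theirs. The relation of CpG content to binding was not tested.

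**Figure D1:**
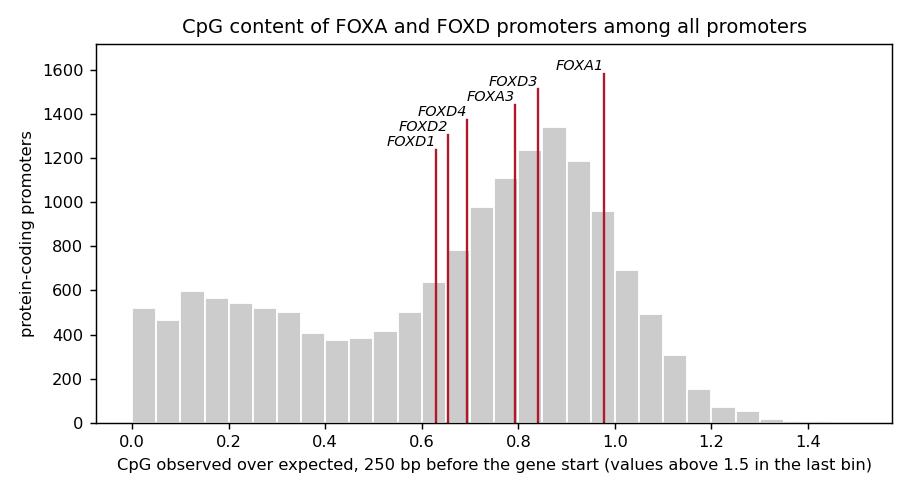
Histogram of the CpG observed-over-expected ratio (x axis) in the 250 bp before the start of 15843 protein-coding genes (y axis, number of promoters); red lines mark 6 members. The members lie between 0.630 (FOXD1) and 0.977 (FOXA1), within the CpG-rich mode of the distribution.

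RING1-A and RNF2-A each had a peak at all 7 genes, RNF2-B at 6 and RING1-B at 4. By the same rule a peak was found at 50.5% of all protein-coding genes in RING1-A, 1.58% in RING1-B, 60.7% in RNF2-A and 25.2% in RNF2-B. FOXA1, FOXD1, FOXD2 and FOXD3 were in both RING1 lists, as were 1.57% of all genes. The RING1-B peaks at these genes had a −log10 q of 1.45 to 4.56. At a −log10 q of at least 5 no member kept one, where 0.0349% of all genes had a RING1-B peak. The count in both RING1 lists was then 0. A window of 5 kb raised that count to 6, where 1.78% of all genes had a RING1-B peak. Every member but FOXA3 was in both RNF2 lists, as were 23.9% of all genes. The 4 genes in both RING1 lists were in all 4 lists, where 1.52% of all genes were. Since RING1-A and RNF2-A each met most protein-coding genes, the presence of all 7 there says little. When the longer lists were shortened to the 659 peaks of highest significance, RING1-A met 6 members (3.94% of all genes), RNF2-A met 6 (4.15%) and RNF2-B met 5 (3.78%). FOXA3 was missing from all 3 shortened lists and FOXA2 from RNF2-B.

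**Figure D2:**
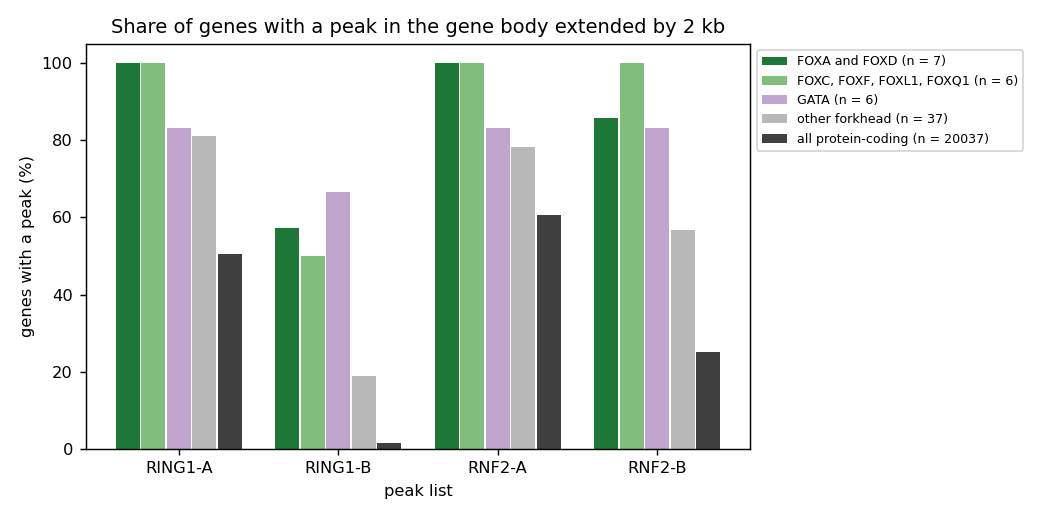
Percent of genes with a peak in the gene body extended by 2 kb (y axis) in each peak list (x axis), for the 7 FOXA and FOXD genes, 6 FOXC, FOXF, FOXL1 and FOXQ1 genes, 6 GATA genes, 37 other forkhead genes and 20037 protein-coding genes. In RING1-B 4 of the 7 members had a peak, against 1.58% of all genes.

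FOXA1, whose product (HNF-3 alpha) acts in endoderm, breast and prostate, was the FOXA gene found in all 4 lists. It lies on chromosome 14 (37589552 to 37595249, hg38, minus strand). The RING1-A peak spanned 20.8 kb (37581216 to 37602048) with a fold of 12.04, rank 24 of 12891 peaks in that list. The RNF2-A peak spanned 23.8 kb (37578157 to 37601996) with a fold of 17.3, rank 21 of 16263. The RNF2-B peak spanned 18.1 kb with a fold of 9.20, rank 19 of 5901. Each of these peaks covered the whole gene and its start. A pair of smaller RING1-B peaks lay at the gene, of 5615 bp (fold 5.59) and 1272 bp (fold 4.93). The 3 broad peaks also covered the nearer end of TTC6, a neighbouring gene of tetratricopeptide repeats whose annotation begins at 37595629, so the peaks cannot be given to FOXA1 alone.

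FOXA2, the gene of HNF-3 beta, lay under the widest RING1-A and RNF2-A peaks of the 7 and had lower folds than FOXA1 in every list where both were found. Its position is chromosome 20, 22580998 to 22585490. The RING1-A peak was 31.4 kb wide, rank 20 by width of 12891, with a fold of 6.74. The RNF2-A peak was 36.6 kb wide, rank 25 by width of 16263, with a fold of 11.1. Both ran over the whole of LINC00261, a long noncoding RNA gene beside FOXA2, so they cannot be given to FOXA2 alone. The RNF2-B peak was 9849 bp wide, over the whole gene, with a fold of 4.22 at rank 1309 of 5901. It met an end of LINC00261 and cannot be given to FOXA2 alone either. Outside the window, further RNF2-B peaks within LINC00261 had folds of 4.74, 3.63 and 3.40. No RING1-B peak met the window. The nearest one (396 bp, fold 4.38) ended 2368 bp from the gene, 368 bp outside the window.

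FOXA3, the gene of HNF-3 gamma in liver and gut, stood apart from the other members, with narrow peaks before the gene in RING1-A and RNF2-A only. The gene lies on chromosome 19, 45864326 to 45873797, plus strand. The RING1-A peak was 784 bp wide with a fold of 4.68 (rank 3031 of 12891), and the RNF2-A peak 1610 bp wide with a fold of 4.88 (rank 3851 of 16263). They started at the same base, 1639 bp before the gene start. The RNF2-A peak ended at 45864296 and the RING1-A peak at 45863470, both before the start, so no base of the gene was covered. Both overlapped an end of SYMPK, the gene of an mRNA 3′ end processing factor, and they cannot be assigned to FOXA3 rather than SYMPK. The nearest RNF2-B peak lay 12430 bp away and the nearest RING1-B peak 1856257 bp away.

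FOXD1 had the highest folds of the FOXD genes in every list. It lies on chromosome 5 (73446266 to 73448777, minus strand). The RING1-A peak was 22.1 kb wide with a fold of 11.9, rank 27 of 12891. The RNF2-A peak was 29.2 kb wide with a fold of 17.1 (rank 27 of 16263), and the RNF2-B peak 19.2 kb wide with a fold of 10.9, rank 2 of 5901. RING1-B had a peak of 12589 bp (fold 5.90, rank 14 of 659, rank 4 by width) and one of 3355 bp (fold 5.77, rank 19). Of the 6 members with a known strand, FOXD1 alone had its start under a RING1-B peak. The RING1-A and RNF2-A peaks also overlapped an end of LINC01386, a long noncoding RNA gene.

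FOXD3, which directs neural crest formation, followed FOXD1 in RNF2-B. It lies on chromosome 1 (63322567 to 63325128, plus strand). The RING1-A peak was 15954 bp wide with a fold of 11.8 (rank 29). The RNF2-A peak was 23.6 kb wide with a fold of 14.9 (rank 56), and the RNF2-B peak 13.1 kb wide with a fold of 10.3 (rank 3 of 5901). RING1-B had peaks of 2971 bp (fold 5.08) and 3761 bp (fold 5.03), on either side of the gene start. The RING1-A and both RNF2 peaks also covered FOXD3-AS1, an antisense RNA gene that overlaps FOXD3, and MIR6068. They met an end of LINC00466 as well, so they cannot be given to FOXD3 alone. Both RING1-B peaks overlapped FOXD3-AS1, and the 3761 bp peak covered MIR6068, so these cannot be given to FOXD3 alone either.

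FOXD2, a gene of the paraxial mesoderm and kidney on the same chromosome (47438044 to 47440691, plus strand), was in all 4 lists at lower folds than FOXD1 and FOXD3. The RING1-A peak was 14.0 kb wide with a fold of 8.77 (rank 154). The RNF2-A peak was 15.7 kb wide with a fold of 13.4 (rank 93), and the RNF2-B peak 13.5 kb wide with a fold of 6.25 (rank 172). RING1-B had peaks of 1093 bp (fold 4.05) and 2007 bp (fold 4.60). The first of these had a −log10 q of 1.45, near the lower limit of the list at 1.08. FOXD2-AS1, a long noncoding RNA gene, lay partly under the RING1-A and both RNF2 peaks. An end of LINC01389, another such gene, lay under these peaks and under the 1093 bp RING1-B peak. These peaks cannot be given to FOXD2 alone.

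FOXD4, near the end of the short arm of chromosome 9 (116231 to 118417, minus strand), had peaks over and beyond the gene that reached at most 207 bp before its start. The RING1-A peak was 9783 bp wide with a fold of 6.998 and reached 73 bp before the start. The RNF2-A peak was 10.6 kb wide with a fold of 10.2 and reached farther, those 207 bp. The RNF2-B peak (109135 to 117738, 8604 bp, fold 7.93, rank 50 of 5901) had its edge inside the gene and left the start uncovered. No RING1-B peak met the window, but one of 375 bp (fold 5.30) lay 3276 bp from the gene, under both RNF2 peaks. The RING1-A and both RNF2 peaks also overlapped LINC01388, a long noncoding RNA gene that holds the 375 bp peak. None of these peaks can be given to FOXD4 alone.

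**Figure D3:**
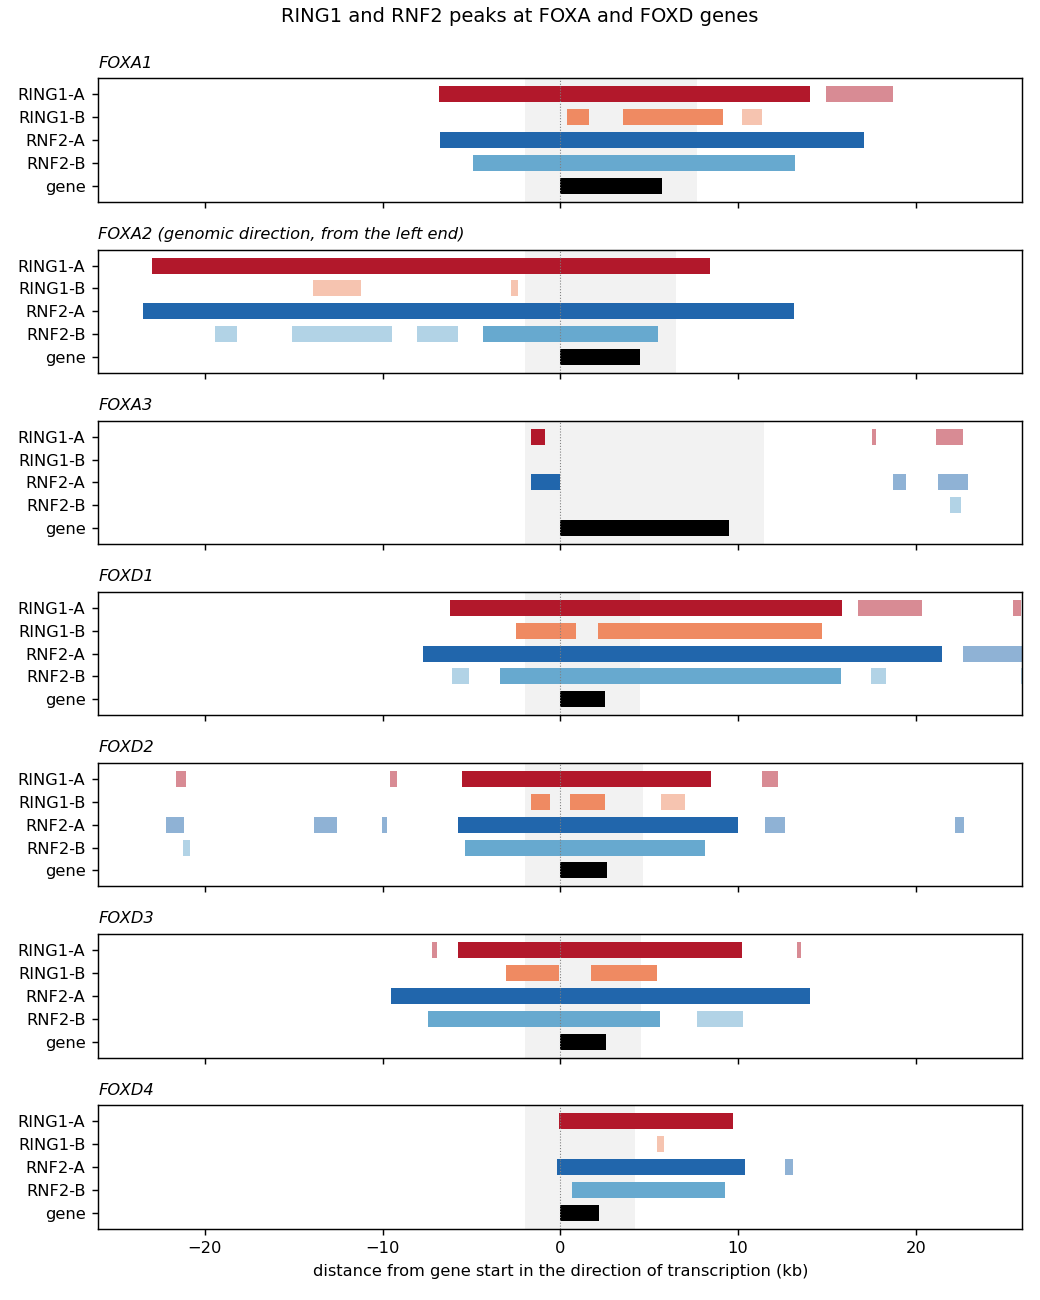
Peaks of the 4 lists (coloured bars, 1 row per list) and the gene (black) at each member, by distance from the gene start in kb in the direction of transcription; FOXA2 is drawn along the chromosome from its left end. Grey shading marks the gene extended by 2 kb, and pale bars are peaks outside it; unbroken RING1-A and RNF2-A peaks cover 6 genes, and FOXA3 has narrow peaks before its start.

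FOXD4 has related genes named FOXD4L, which arose by duplication, and its values are given as uncertain because reads could match more than 1 of them. The 300 bp RefSeq promoter of FOXD4L6 was 97.3% identical to that of FOXD4, while those of FOXD4L1, FOXD4L3, FOXD4L4 and FOXD4L5 aligned at 41.6% to 43.9%, no more than those of FOXD1, FOXD2 and FOXD3 (45.4% to 47.9%). Only these 300 bp were aligned. The gene bodies and the rest of the DNA under the FOXD4 peaks were not compared, so the likeness of the copies there is not given by these values. FOXD4L6 had an RNF2-A peak (fold 4.49) and no other. FOXD4L1, on chromosome 2, had peaks in RING1-A (6.17), RNF2-A (8.23) and RNF2-B (5.56). RNF2-A peaks were also at FOXD4L3 (4.81) and FOXD4L4 (4.10), and FOXD4L5 had no peak. No source used here says how reads that match several copies were placed, and the effect on the FOXD4 peaks was not tested.

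The folds of 6 members in RING1-A and RNF2-A and of 5 in RNF2-B lay above the 90th percentile of genes with a peak. Over all genes with a peak in RING1-A the median of the highest fold per gene was 4.20 and the 90th percentile 5.98. These were 4.68 and 5.52 in RING1-B, 4.35 and 6.57 in RNF2-A, and 3.81 and 5.16 in RNF2-B. The members with a peak had a median of 8.77 in RING1-A (7 members), 5.33 in RING1-B (4), 13.4 in RNF2-A (7) and 8.57 in RNF2-B (6). In RING1-B FOXA1 and FOXD1 exceeded the 90th percentile, and FOXD2, at 4.60, lay below the median. FOXA3 exceeded the median, and not the 90th percentile, in RING1-A and RNF2-A, and FOXA2 did so in RNF2-B. By fold the order in RNF2-A was FOXA1, FOXD1, FOXD3, FOXD2, FOXA2, FOXD4 and FOXA3, and in RNF2-B it was FOXD1, FOXD3, FOXA1, FOXD4, FOXD2 and FOXA2. FOXA1 stood above FOXD1 and FOXD3 in RNF2-A and below both in RNF2-B, and FOXD4 stood below FOXD2 and FOXA2 in RNF2-A and above both in RNF2-B. The order within these 4 pairs is not settled by these data.

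**Figure D4:**
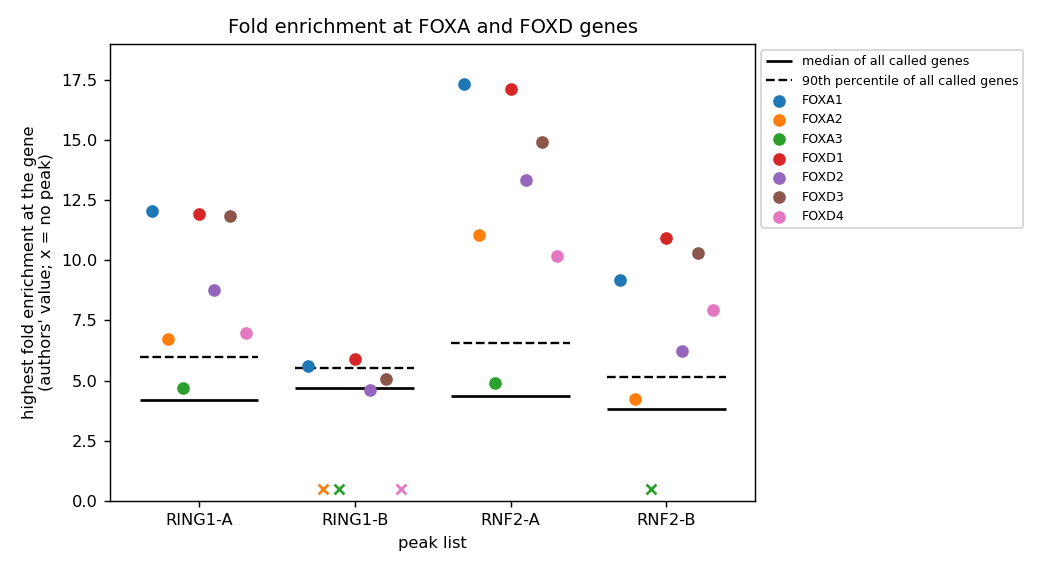
Highest fold enrichment (y axis, the authors' ratio) at each member (coloured points) in each peak list (x axis); crosses near 0 mark members without a peak, and solid and dashed lines the median and 90th percentile over all genes with a peak in that list. FOXA1, FOXD1 and FOXD3 are the highest 3 members in both RNF2 lists and in RING1-A.

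Most members lay wholly under a peak. Whole gene bodies were covered by RING1-A at 6 members and 1.20% of all genes, by RNF2-A at 6 members and 1.76% of all genes, and by RNF2-B at 5 members and 0.938% of all genes. RING1-B covered no member wholly, where it covered 0.0549% of all genes. The members are short genes, 2187 to 9472 bp long, which a peak covers more easily. Among the 5694 genes of at most 10 kb, whole bodies were covered at 3.97% by RING1-A, 5.80% by RNF2-A and 3.16% by RNF2-B. The median share of the extended gene under peaks, over members with a peak, was 100% in RING1-A, RNF2-A and RNF2-B, against 2.32%, 3.17% and 2.55% over all genes with a peak in those lists. Peaks wider than 10 kb made up 1.65% of RING1-A, 1.88% of RNF2-A and 3.07% of RNF2-B.

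At the members with a known strand other than FOXA3, the RING1-A and RNF2-A peaks reached to both sides of the gene start, farther downstream. The FOXA3 peaks ended before the start, and the RNF2-B peak at FOXD4 lay wholly beyond it. The start lay under a peak in RING1-A and in RNF2-A at 5 of the 6 members with a known strand, against 31.5% and 45.0% of genes with a strand. RNF2-B covered the start at 4 of 6 (12.6% of genes) and RING1-B at 1 of 6 (0.404%). For RNF2-A the reach before and beyond the start was 6747 and 17092 bp at FOXA1, 7745 and 21453 bp at FOXD1, 9529 and 14049 bp at FOXD3, 5746 and 10001 bp at FOXD2, and 207 and 10407 bp at FOXD4. The peaks thus extended past the end of each of these short genes into the DNA beyond.

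Within the gene extended by 2 kb, RING1-B had a pair of peaks at each of the 4 members found, with a gap that overlapped the gene. At FOXA1 the gap was 1913 bp and at FOXD1 1263 bp, and both lay wholly inside the gene. At FOXD3 the gap of 1799 bp held the gene start and 1700 bp of the gene. At FOXD2 the gap of 1096 bp held the start and 528 bp of the gene. The other 3 lists had a single unbroken peak across each of these gaps. Such pairs were common in RING1-B, where 135 of the 317 genes with a peak (42.6%) had 2 or more. The count of peaks depended on the window. Outside it, a further RING1-B peak lay 4515 bp from FOXA1 (1120 bp, fold 4.28) and another 3021 bp from FOXD2 (1358 bp, fold 4.80). Each lay under the same broad peaks of the other lists as the pair.

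At the members RING1 peaks lay within RNF2 peaks. Of the bases of the RING1-A peaks 99.8% at FOXA1 and 100% at the other 6 were under RNF2-A, against 87.0% over the whole list. All bases of the RING1-B peaks at FOXA1, FOXD1, FOXD2 and FOXD3 were under RNF2-B, against 90.8% over the list. The share of RNF2-A bases under RING1-A was 96.1% at FOXA1, 92.2% at FOXD4, 88.9% at FOXD2, 87.7% at FOXD1, 85.7% at FOXA2, 69.8% at FOXD3 and 48.7% at FOXA3, against 53.6% over the list. The RNF2-B peaks at 6 members lay entirely under RNF2-A peaks, where 85.0% of the bases of the whole list did.

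The authors' consolidated file of 4255 regions held 1 region at each member but FOXA3. Of its regions 100% overlapped RNF2-A and 99.6% RNF2-B, so it is not independent of the lists, and 22.8% of all genes had such a region. The regions were 36.6 kb wide at FOXA2 (rank 25 by width), 29.2 kb at FOXD1 (rank 50), 25.5 kb at FOXA1 (rank 70), 23.6 kb at FOXD3, 15.7 kb at FOXD2 and 10.6 kb at FOXD4.

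Within the forkhead family the FOXC, FOXF, FOXL1 and FOXQ1 genes, several of which act in mesoderm, were all found in RING1-A, RNF2-A and RNF2-B, and 3 of these 6 in RING1-B. Their median fold was 7.45 in RING1-A, 5.70 in RING1-B, 11.7 in RNF2-A and 5.41 in RNF2-B, where the members had 8.77, 5.33, 13.4 and 8.57, so the members' median was the lower in RING1-B and the higher in the other lists. FOXC2 and FOXL1 had the same values in RING1-A and in RNF2-A, so the medians there do not rest on 6 separate peaks. FOXF1 had folds of 13.8 in RNF2-A and 6.69 in RNF2-B, and in the same order FOXF2 13.6 and 5.91, FOXC1 13.1 and 4.92, and FOXC2 10.2 and 6.04. Among all 37 other forkhead genes outside the FOXD4 copies, these 6 included, 30 were in RING1-A, 7 in RING1-B, 29 in RNF2-A and 21 in RNF2-B. FOXL2, a gene of ovarian development, had RNF2-A and RNF2-B folds of 13.7 and 7.89, FOXB2 had 14.0 and 6.79, and FOXB1 had 12.5 and 6.41. The difference between these groups and the 7 members was not tested.

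Lists of genes from tissues in which FOXA and FOXD factors act are set beside the shares of all genes, which were 50.5% in RING1-A, 1.58% in RING1-B, 60.7% in RNF2-A and 25.2% in RNF2-B. Of 20 floor plate and endoderm genes 13 were in RING1-A, 9 in RING1-B, 13 in RNF2-A and 13 in RNF2-B, so the counts in RING1-A and RNF2-A were not far from those shares. Of 18 neural crest genes these counts were 17, 9, 17 and 15. GATA6, which acts with FOXA factors in endoderm, had folds of 16.5 in RNF2-A and 7.79 in RNF2-B, and GATA4 had 15.6 and 9.34. HHEX, a gene of liver and foregut, had 11.8 and 8.61, and NKX6-1, a gene of ventral neural tube and pancreas, had 13.8 and 8.22. In the neural crest list PAX3 had 15.1 and 7.22, PAX7 13.8 and 6.77, and MSX1 17.1 and 5.55. Of 6 GATA genes 5 were in RING1-A, RNF2-A and RNF2-B and 4 in RING1-B.

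Genes outside the family with the most similar pattern were found by the distance between percentile ranks of the highest fold in the 4 lists, in percentile points. The nearest to FOXA1 were NFIB (distance 0.388) and HAND2 (1.33). FOXD1 was nearest to PITX1 (0.834) and SIM1 (0.995), FOXD2 to EN1 (1.001) and NEUROG2 (2.33), and FOXD3 to CDKN2C (1.37) and HOXD8 (1.66). All 8 were in all 4 lists. FOXD4 was nearest to HOXA6 and HOXA7, which share 1 set of values (1.83), and FOXA2 to KCNA3 (2.03) and CCDC9 (2.25), all without a RING1-B peak. FOXA3 was nearest to DDHD2 and PLPP5, which also share 1 set of values (0.585) and were in neither RING1-B nor RNF2-B. Likeness over 4 lists is a description and says nothing of shared control.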

How the data were processed

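CUT&RUN libraries were prepared with an EpiCypher kit, per the labels' protocols. The genome build was hg38, and MACS2 2.2.9.1, BWA 0.7.17, deepTools 3.5.2, Picard 2.8.1, SAMtools 1.9 and bedtools 2.30.0 were used in roles not stated, per the submitters' processing notes. The deposited fold is a ratio of signal over background per peak, and the deposited significance is −log10 of the q-value. Neither the control library nor the depth is given in the sources used here, so no counting interval was computed. The labels tie no peak list to a replicate number. The authors' consolidated regions carry no values.

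A gene was called when a peak on chromosomes 1 to 22, X or Y overlapped its RefSeq body (GRCh38.p14) extended by 2 kb by at least 1 bp. Where several peaks lay there, the highest fold was used. RefSeq promoters matched 6 of 7 members. CpG ratios used the 250 bp before the start. Promoters were aligned globally with Biopython 1.88. Protein identity was planned and not computed.

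The members, gene lists and rules were chosen with earlier results of these data known, and whole-gene coverage and the gaps in RING1-B were described after the values were seen. No test was run. Genes are named by a rule: all members, up to 4 genes per list by the smaller of the RNF2-A and RNF2-B folds, the 2 genes most like each member, and neighbours under a member's peaks; FOXD4L3, FOXD4L4, FOXD4L5 and FOXD4L6 fall outside the rule and were named after their values were seen. A gene that the rule names is not reported here. Calls were tested on simulated data and by bedtools 2.31.1. Python 3.11.15, numpy 2.4.6, pandas 2.3.3 and matplotlib 3.10.9 were used. Alternatives were windows of 1 kb and 5 kb, gene ends only, a −log10 q of at least 5, lists of equal length, an overlap of 500 bp, chromosomes 1 to 22, each pair of same-letter lists left out, a width-weighted fold, short genes only and, chosen after seeing the data, CpG-rich promoters only.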

Additional observations from a re-analysis of the deposited data

How the results depend on the processing

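Counts of members in RING1-A, RNF2-A and RNF2-B stayed within 1.5 times of the reported value in all settings run. At a −log10 q of at least 5, RING1-B kept 7 peaks and met 0 members, where 0.0349% of all genes were called. The count in both RING1 lists was therefore 0. RING1-A and RNF2-A then met 6 members and RNF2-B 5, where 8.74%, 17.1% and 2.70% of all genes were called. With either letter left out, the count of members in the remaining RING1 list ranged from 4 to 7, and that in the remaining RNF2 list from 6 to 7. A window of 5 kb added FOXA2 and FOXD4 to RING1-B, giving 6 members where 1.78% of all genes were called. Among genes with a CpG-rich promoter, a background chosen after seeing the data, 66.3% were in RING1-A, 1.81% in RING1-B, 79.3% in RNF2-A and 32.2% in RNF2-B. Among genes of at most 10 kb these shares were 40.0%, 2.48%, 44.9% and 22.4%. Of 72 alternative values of the members' folds, 67 equalled the reported ones, but most could not differ. With a single peak in the window the width-weighted fold is the highest fold by definition. Another window alters a fold only where it adds or drops a peak. The values that differed were all in RING1-B, where each member found had more than 1 peak. No paired analysis was possible because no result comes from a test; lists of the same letter were compared by overlap only. Unknown depth and the short RING1-B list limit every statement on a missing peak.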
